A study of Saccharomyces cerevisiae with 12 samples.

Results

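Occupancy of RNA polymerase II (Pol II) over genes, measured by chromatin immunoprecipitation and sequencing, was compared between budding yeast carrying the Pcf11-DNL allele and yeast carrying wild-type PCF11 (WT). The comparison uses the 2 Pcf11-DNL and 2 WT libraries of DNA immunoprecipitated with an antibody to the C-terminal domain (CTD) of Pol II, 4 of the 12 libraries of the series, and all genes in the deposited table. The 2 Pcf11-13 Pol II libraries enter only to share the estimate of the spread and as values set beside the others, and the 6 input libraries, DNA that was not precipitated, check gene copy. The table holds 6650 genes, of which 6642 were tested and 8 were too low in coverage.

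All groups were w303 cells of mating type alpha grown in glucose to an OD600 of 0.5 and fixed in 1.035% formaldehyde for 15 minutes. All shared the alleles ura3-1, trp1-delta, ade2-1 and his3-11,15, and a chromosomal PCF11 deletion written pcf11-delta::TRP1. The leu2 allele is given as leu2-3,12 for Pcf11-DNL, while for WT and Pcf11-13 the same entry ends in 112. The only PCF11 was on a LEU2 plasmid: pRS325-LEU2-V5-PCF11-MYC in WT, pRS325-LEU2--V5-pcf11-deltaN-linkMYC in Pcf11-DNL and pRS325-LEU2-pcf11-13 in Pcf11-13. WT and Pcf11-DNL therefore carried V5 and MYC tags that Pcf11-13 lacked. In the series text the allele is called Pcf11-dQN; Pcf11-DNL, from the sample titles, is used here. The labels describe the libraries as made from a pair of biological replicates per strain. They do not say whether more than 1 transformant was used.

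Pcf11 is a subunit of cleavage factor IA, the complex that with the cleavage and polyadenylation factor (CPF) cuts the 3′ end of a nascent mRNA. Its CTD-interacting domain binds the phosphorylated tail of Pol II, and Pcf11 helps release the polymerase from DNA both at mRNA genes and at short non-coding genes. At small nucleolar RNA (snoRNA) genes, release runs mainly through the Nrd1-Nab3-Sen1 complex, and Pcf11 takes part in this release as well. When Pol II is not released there it can run on into the next gene or, on the other strand, into a gene that faces the snoRNA gene. The libraries do not separate strands, so coverage of a gene includes Pol II moving through it in either direction.

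Before any gene is compared, 2 libraries stand apart. Coverage was divided by a scaling factor for each library, and the SD of log2 scaled coverage over genes was 0.928 in WT 1 and 0.918 in Pcf11-DNL 2. It was 1.19 in WT 2, 1.08 in Pcf11-DNL 1, and 1.14 and 1.13 in Pcf11-13. From the 1st to the 99th percentile of genes, WT 1 ran from 37.6 to 1218 and Pcf11-DNL 2 from 38.4 to 1129, against 13.8 to 1599 in WT 2 and 22.3 to 1360 in Pcf11-DNL 1. WT 1 and Pcf11-DNL 2 are called the narrow libraries here and WT 2 and Pcf11-DNL 1 the wide ones. Each genotype has 1 of each, so the mean over replicates holds both kinds in both groups. Nothing in the sample descriptions shows whether replicate numbers or genotypes of these libraries were exchanged, and all results take the genotypes as given. The input libraries had SDs of 0.287 to 0.299 and showed no such split.

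Libraries of 1 genotype differed from each other more than libraries of like range from different genotypes did. The SD of the log2 difference over genes was 0.361 between the WT libraries and 0.224 between the Pcf11-DNL libraries. It was 0.098 between Pcf11-DNL 2 and WT 1, the pair of narrow libraries, and 0.190 between Pcf11-DNL 1 and WT 2, the pair of wide libraries. In the pairs of unlike range it was 0.228 between Pcf11-DNL 1 and WT 1 and 0.371 between Pcf11-DNL 2 and WT 2. In the narrow pair 9 of 6642 genes differed by more than 1.5-fold, 7 higher and 2 lower. In the wide pair 117 did, 109 of them higher, and between Pcf11-DNL 2 and WT 2, which differ in range, 578 did. The fitted change over all 4 libraries passed 1.5-fold at 19 genes, all higher. Some of these were low in coverage and overlapped between genotypes. The a-factor gene MFA1, for example, had 25.2 and 11.3 in WT and 21.1 and 33.9 in Pcf11-DNL (limma unadjusted p = 0.49).

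The pairs of unlike range also tied the difference to the level of a gene. Genes were split into 10 groups of nearly equal size by their mean log2 coverage in WT. From the lowest to the highest group, the median log2 difference went from 0.67 to -0.38 between Pcf11-DNL 2 and WT 2 and from -0.41 to 0.19 between Pcf11-DNL 1 and WT 1. In the narrow pair it stayed between -0.04 and 0.01, and in the wide pair it went from 0.25 to -0.15. The fitted change went from 0.13 to -0.10, and from 0.12 to -0.10 when the groups were formed from the mean of all 4 libraries. Values of the narrow and the wide pair are therefore given beside the fit for the genes and lists described most fully.

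**Figure D1:**
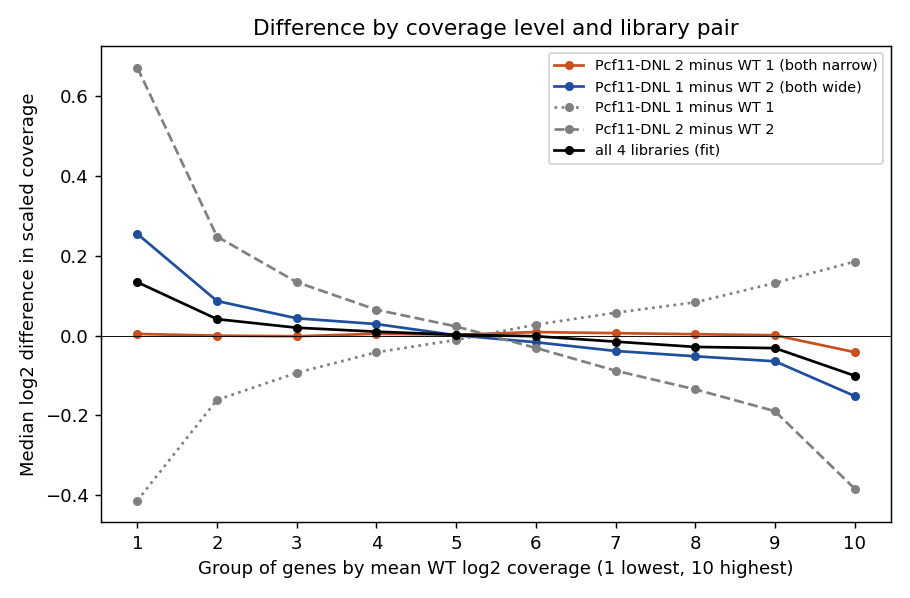
Median log2 difference in scaled Pol II coverage (vertical axis) for genes in 10 groups of mean WT log2 coverage (horizontal axis, 1 is lowest), for the fit of all 4 libraries and for the 4 pairs of 1 Pcf11-DNL and 1 WT library. The narrow pair stays between -0.04 and 0.01, while the pairs of unlike range slope in opposite directions, ending at 0.19 and -0.38 in the top group.

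Fitted Pol II coverage in Pcf11-DNL was within 1.5-fold of WT at all but 19 genes tested, and 7 of the 10 highest-ranked positive differences lay over genes next to snoRNA genes. By limma on log2 scaled coverage, 1 gene passed an adjusted p of 0.05, YMR194C-A, which is 0.0151% of 6642 genes. At an unadjusted p under 0.05 there were 107 genes (1.61%), 81 higher (1.22% of genes tested) and 26 lower (0.391%). Both Pcf11-DNL libraries lay above both WT libraries at 604 genes (9.09%) and below both at 505 (7.6%). A change shared by all genes would be removed by the scaling and cannot be seen.

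YMR194C-A, an uncharacterised open reading frame with no coordinates in the gene table, had a scaled coverage of 180 and 176 in the WT libraries and of 437 and 377 in the Pcf11-DNL libraries. The WT values nearly coincided and both Pcf11-DNL values were more than 2-fold above them. It rose 2.27-fold (178 ± 2.63 to 407 ± 42.1, SD, n = 2), a log2 change of 1.19 (SE 0.11, limma adjusted p = 0.016). The log2 difference was 1.06 in the narrow pair and 1.31 in the wide pair. Its input coverage was 137, 133, 136 and 141 in the same order, a log2 difference of 0.04. The log2 change less that of input was 1.15 (adjusted p = 0.018). The call was lost with no coverage filter (adjusted p = 0.068), with the WT and Pcf11-DNL libraries fitted alone (adjusted p = 0.050) and with meiosis and sporulation genes set to a common median, a setting that gave a log2 difference of 1.10 and called no gene. Without WT 1, 401 genes passed, and without WT 2, 28.

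Its systematic name places YMR194C-A on the Crick strand of chromosome XIII, near YMR194W, which is RPL36A, and YMR194C-B, which is CMC4. The name does not give its position relative to these genes, which is not known here. The snoRNA gene SNR11 lies between RPL36A and CMC4 at 652275 to 652532, 61 bp from the end of CMC4 (652594 to 652887). CMC4, which encodes a protein of the mitochondrial intermembrane space, had 1566 and 2288 in WT and 1770 and 1339 in Pcf11-DNL. RPL36A, a ribosomal protein gene (651145 to 651910), had 403 and 594 against 470 and 388, although these values fitted a stretch of only 8 bases. For CMC4 and RPL36A the libraries overlapped between genotypes (log2 -0.30, unadjusted p = 0.42, and -0.20, unadjusted p = 0.33). Neither gene passed the test.

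Neighbours of snoRNA genes were found from the RefSeq gene table, within 1000 bp. There were 32 genes that came next on the same strand after 1 of 76 snoRNA genes, and 29 genes on the opposite strand whose end faced a snoRNA 3′ end. Together they made 59 genes, 0.988% of the 5971 tested genes with coordinates. None passed the adjusted threshold in the fit of all libraries. At an unadjusted p under 0.05, 7 of the 32 and 4 of the 29 were higher, 11 of the 59 (18.6%, against 1.22% of genes tested), and 0 were lower. Both Pcf11-DNL libraries lay above both WT libraries at 17 of the 59 (28.8%, against 9.09%) and below at 3 (5.08%, against 7.6%). Of the 10 higher genes of smallest p, 9 had coordinates and 7 of these were snoRNA neighbours, against 0 of the 7 lower genes with coordinates. The median log2 change of the same-strand list was -0.01 (0.05 narrow, -0.06 wide), against -0.00 over all genes, with -0.06 without WT 1 and 0.06 without WT 2. That of the facing list was 0.07 (0.13 narrow, 0.07 wide), with -0.01 without WT 1 and 0.23 without WT 2. With meiosis and sporulation genes set to a common median, which moved the median of all genes to -0.09, the facing list had -0.02.

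YDR042C had the largest positive difference of the same-strand neighbours. It is an uncharacterised gene on chromosome IV (540601 to 541203) that starts 398 bp after SNR47. Its scaled coverage was 98.0 and 79.8 in WT and 160 and 153 in Pcf11-DNL. The lower Pcf11-DNL value was above the higher WT value by more than the gap within either genotype. The log2 difference was 0.82 (SE 0.11, limma adjusted p = 0.088), with 0.63 in the narrow and 1.00 in the wide pair. It passed under some other settings (adjusted p = 0.035 with each library given an equal spread of log2 values, and 0.030 with input subtracted). Its input differed by 0.02.

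TRS31, a subunit of the TRAPP vesicle-tethering complex (chromosome IV, 1403322 to 1404173), lies 279 bp after SNR13. It had 216 and 223 in WT and 311 and 327 in Pcf11-DNL. The pairs did not overlap, and the log2 difference was 0.54 (SE 0.09, adjusted p = 0.33), with 0.60 in the narrow and 0.48 in the wide pair. HEM4, uroporphyrinogen III synthase of haem synthesis (chromosome XV, 842817 to 843644), lies 210 bp after SNR5. It had 157 and 146 in WT and 206 and 211 in Pcf11-DNL, a log2 difference of 0.46 (SE 0.08, adjusted p = 0.33), with 0.43 in the narrow and 0.49 in the wide pair. Again the libraries did not overlap. The input of TRS31 differed by 0.03 on the log2 scale and that of HEM4 by -0.02.

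SEN2, a subunit of the tRNA splicing endonuclease, lies 246 bp after SNR79. Its coverage was 150 and 136 in WT and 188 and 184 in Pcf11-DNL (log2 0.38, unadjusted p = 0.0011). CTO1, 193 bp after SNR33, had 137 and 132 against 165 and 172 (log2 0.32, unadjusted p = 0.0017). Both genes had narrow and wide pairs of the same direction, 0.29 and 0.47 for SEN2 and 0.33 and 0.32 for CTO1. The remaining same-strand neighbours at an unadjusted p under 0.05, named after their values were seen, were USE1 and PDX3. USE1, a SNARE of retrograde vesicle traffic, lies 286 bp after SNR82 and had a log2 difference of 0.34 (unadjusted p = 0.016). PDX3, an oxidase that makes pyridoxal phosphate, lies 229 bp after SNR161 and had 0.22 (unadjusted p = 0.036).

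Among genes facing a snoRNA 3′ end, VMA9 and PAM16 had the largest positive differences. VMA9, a subunit of the vacuolar proton pump (chromosome III, 107023 to 107417), faces SNR43 at 86 bp. It had 129 and 140 in WT and 205 and 218 in Pcf11-DNL, with no overlap (log2 0.65, SE 0.08, limma adjusted p = 0.088; 0.76 narrow, 0.55 wide). Its values fitted a stretch of 11 of its 395 bp, so they describe a small piece of the gene. Its input differed by 0.22 and the log2 Pol II difference less that of input was 0.44 (adjusted p = 0.65).

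PAM16, a subunit of the mitochondrial protein import motor (chromosome X, 227327 to 227776), faces SNR37 at 317 bp. Its coverage was 176 and 186 in WT and 274 and 285 in Pcf11-DNL. The libraries of the genotypes did not overlap, and the log2 difference was 0.62 (SE 0.09, adjusted p = 0.12), with 0.69 in the narrow and 0.55 in the wide pair. Its input differed by -0.01. DAS1, which encodes an F-box protein and faces SNR128 at 195 bp, had a log2 difference of 0.27 (unadjusted p = 0.014). SSO2, a plasma membrane SNARE facing SNR83 at 266 bp, had 0.27 (unadjusted p = 0.035). Both were named after their values were seen. CMC4, described above, belongs to this list too, and its log2 value of -0.30 shows that not every facing gene had a positive value.

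**Figure D2:**
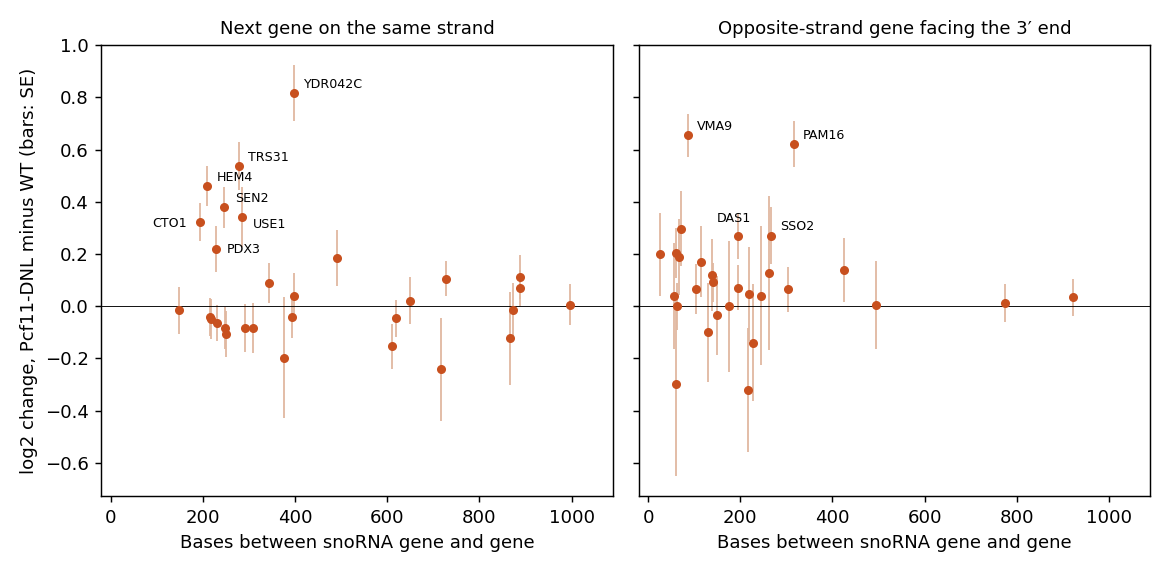
Fitted log2 difference between Pcf11-DNL and WT (vertical axis, bars are the SE) of the neighbours of snoRNA genes against the bases between snoRNA gene and gene (horizontal axis), with next same-strand genes on the left and facing genes on the right, each gene drawn once at its nearest relation. Genes with an unadjusted p under 0.05 are named, and the highest are YDR042C at 0.82 and VMA9 at 0.65.

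Distance to the snoRNA gene was read as a description only. Of the same-strand neighbours, 6 of the 13 within 300 bp had an unadjusted p under 0.05 and were higher, 1 of the 8 between 300 and 600 bp, and 0 of the 11 between 600 and 1000 bp. Of the facing genes it was 3 of 23, 1 of 4 and 0 of 2. Over all genes tested, 1.22% were higher at that threshold. The median log2 differences of the same-strand bins were -0.016, -0.00086 and 0.0049 in the same order, so the medians did not fall with distance. Those of the facing bins were 0.072, 0.10 and 0.024. The bins hold fewer than 20 genes in all but 1 case, and the order was not tested.

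TIR4, HIS4 and YMR194C-A were the members of the 10 highest-ranked genes that were not counted as snoRNA neighbours. TIR4, a cell wall mannoprotein gene (chromosome XV, 344335 to 345798), had 86.5 and 83.1 in WT and 103 and 110 in Pcf11-DNL (log2 0.32, unadjusted p = 0.0019). HIS4, a multifunctional enzyme of histidine synthesis (chromosome III, 65934 to 68333), had 170 and 163 against 206 and 214 (log2 0.34, unadjusted p = 0.0024). For both genes the pairs gave nearly equal differences, 0.34 and 0.31 for TIR4 and 0.33 and 0.34 for HIS4.

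**Figure D3:**
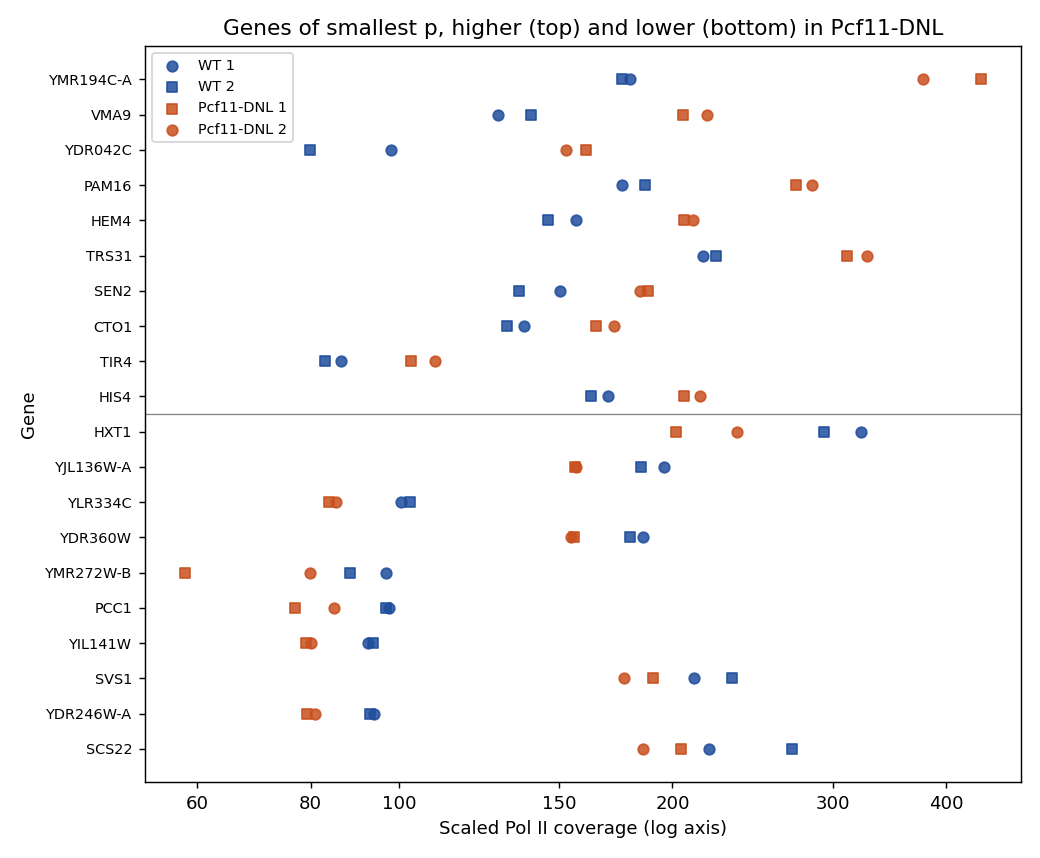
Scaled Pol II coverage (horizontal log axis) of each gene named by rank in the 4 libraries, with the 10 higher genes of smallest p above the line and the 10 lower genes below it; circles are the narrow and squares the wide libraries. Every gene shown was chosen because its genotypes do not overlap, and YMR194C-A has the widest gap, from 180 in WT 1 to 377 in Pcf11-DNL 2.

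No gene with less Pol II in Pcf11-DNL passed the adjusted threshold. Of the 10 lower genes of smallest p, 7 had coordinates and 0 of these lay beside a snoRNA gene. The share over tested genes with coordinates was 0.988%, so this small set cannot show a lack of such neighbours. HXT1, a low-affinity glucose transporter (chromosome VIII, 290913 to 292625), had 322 and 294 in WT and 202 and 235 in Pcf11-DNL. Both Pcf11-DNL libraries were lower, and the log2 difference was -0.49 (SE 0.10, limma adjusted p = 0.73; unadjusted p = 7.7e-04), with -0.45 in the narrow and -0.54 in the wide pair. The other 9 genes of smallest p had log2 differences from -0.22 to -0.44. They were YJL136W-A, YLR334C, YDR360W, YMR272W-B, YIL141W and YDR246W-A, which have no standard gene name in the table, and PCC1, SVS1 and SCS22. PCC1, a subunit of the KEOPS complex of tRNA modification, had 97.5 and 96.9 in WT and 76.9 and 84.9 in Pcf11-DNL (log2 -0.26, unadjusted p = 0.012), from a stretch of 38 bp. SCS22, a membrane protein of phospholipid regulation, had 220 and 270 against 204 and 186 (log2 -0.32, unadjusted p = 0.017).

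Taking a log2 difference beyond 0.3 in the same direction in both the narrow and the wide pair, 24 genes were higher (0.361%) and 11 lower (0.166%). Of the 24, 6 were snoRNA neighbours, namely VMA9, CTO1, YDR042C, TRS31, PAM16 and HEM4. In 12 of the 24 the genotypes did not overlap. These also included HIS4, TIR4, URA2, YMR194C-A and YOR008W-B. In the other 12 the narrow libraries of both genotypes were high and the wide ones low, so that the genotypes overlapped, as for the a-factor gene MFA1 with 25.2 and 11.3 against 21.1 and 33.9.

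None of the 11 lower genes was counted beside a snoRNA gene, a set too small to compare with the 0.988% of tested genes with coordinates. In 4 of the 11, HXT1, TOS6, YAR053W and RPL35B, the genotypes did not overlap. TOS6, a cell wall protein gene, had 373 and 418 in WT and 339 and 290 in Pcf11-DNL. RPL35B rests on a stretch of 3 bases. In the other 7 the genotypes overlapped. They were PHM6, SPL2 and VTC3, which belong to or accompany the phosphate response, FET3, FRE1 and FRE7, which serve metal uptake, and CHA1, which breaks down serine and threonine. FRE1, for example, had 572 and 952 in WT and 744 and 380 in Pcf11-DNL. Genes in this and the preceding paragraph that were not described before them were named after their values were seen.

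**Figure D4:**
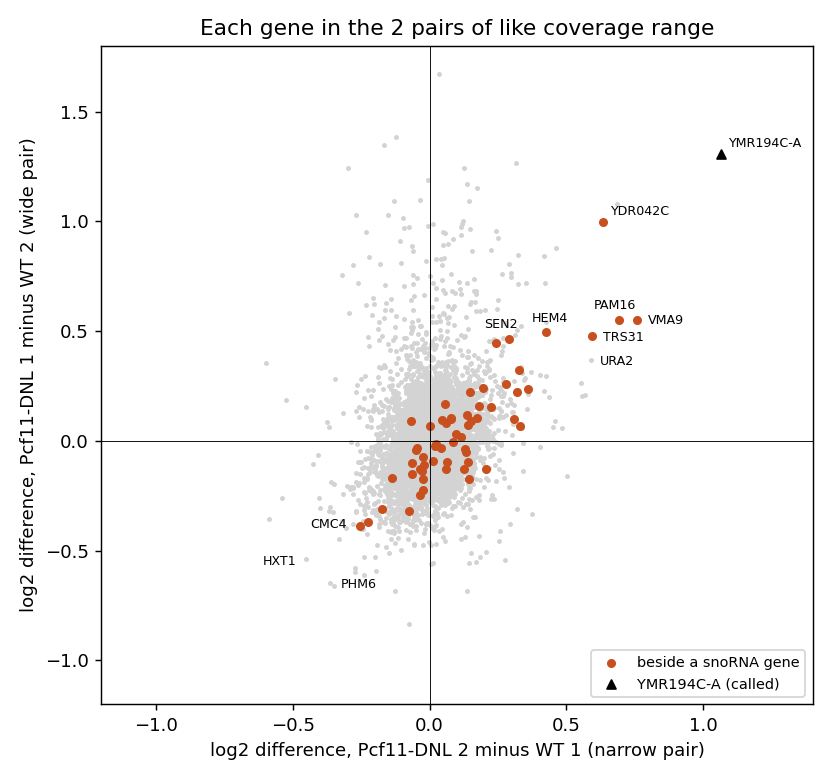
Log2 difference of each gene in the narrow pair (horizontal axis, Pcf11-DNL 2 minus WT 1) and in the wide pair (vertical axis, Pcf11-DNL 1 minus WT 2), with neighbours of snoRNA genes in orange and the called gene as a triangle; 1 of 6642 genes lies outside the axes. YMR194C-A is at 1.06 and 1.31, and PAM16, VMA9, TRS31 and HEM4 lie above 0.4 in both pairs.

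The spread of fits with 1 library per genotype came from the Pcf11-13 pair, on the assumption that the lone WT and Pcf11-DNL libraries vary alike. With only the narrow libraries, 8 genes passed (0.12%), 7 higher (0.105%) and 1 lower (0.0151%). With only the wide libraries, 105 of 6637 passed (1.58%), 72 higher (1.08%) and 33 lower (0.497%). YMR194C-A, YDR042C, VMA9, PAM16 and TRS31 passed in both fits and were higher in both, which is 62.5% of the first list and 4.76% of the second. Except for YMR194C-A, these are neighbours of snoRNA genes. The remaining genes of the narrow pair were URA2, RFA2 and PTC7. The values of RFA2 and PTC7, named after their values were seen, fitted stretches of 7 and 11 bases, and PTC7 had -0.60 in the narrow pair and 0.35 in the wide pair.

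PCF11 itself (YDR228C, chromosome IV, 921926 to 923806) had 154 and 168 in WT and 158 and 158 in Pcf11-DNL, a log2 difference of -0.03 (SE 0.10, unadjusted p = 0.78). The libraries overlapped. The table gives a single value per gene and cannot show a change inside the coding sequence, so this value does not check the allele. LEU2, the plasmid marker, had a Pol II difference of 0.10 (unadjusted p = 0.37). Its input was 435 and 448 in WT and 490 and 482 in Pcf11-DNL. That input difference of 0.14 (SE 0.02) did not pass adjustment (limma adjusted p = 0.9999). The Pol II difference of LEU2 less that of input was -0.04. TRP1, which marks the PCF11 deletion, had a Pol II difference of -0.01, URA3 0.05, HIS3 0.11 and ADE2 0.16. Of these only ADE2 had non-overlapping genotypes, with 113 and 111 against 121 and 129 (unadjusted p = 0.046), and its strain allele is ade2-1 in both genotypes.

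Genes of the termination machinery had list medians close to that of all genes. Of the 5 genes of cleavage factors IA and IB, none had an unadjusted p under 0.05, and their median log2 difference was -0.03 (-0.05 narrow, -0.07 wide). RNA14, a scaffold of the factor, had -0.06, RNA15, its RNA-binding subunit, 0.01, CLP1 0.03, and HRP1, the subunit of factor IB, -0.16 (unadjusted p = 0.17). Of 15 genes of CPF, with a median of -0.01, 1 was higher at an unadjusted p under 0.05 (6.67%, against 1.22% of genes tested). It was REF2, which is needed for snoRNA termination. REF2 had 119 and 121 in WT and 146 and 141 in Pcf11-DNL (log2 0.26, SE 0.08, unadjusted p = 0.0085). The 2 WT values of REF2 were closer to each other than to either Pcf11-DNL value, and it did not pass adjustment.

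Of 12 genes of the Nrd1-Nab3-Sen1 complex, the torpedo pathway and exosome cofactors, with a median of 0.01, none had an unadjusted p under 0.05. Without WT 1 or WT 2 the medians of the cleavage factor, CPF and Nrd1 complex lists ran from -0.07 to 0.05. SEN1, the helicase of the complex, had 95.2 and 97.4 in WT and 101 and 99.4 in Pcf11-DNL (log2 0.06). The 12 Pol II subunit genes had a median of -0.05 (-0.01 narrow, -0.05 wide), with -0.13 without WT 1 and 0.08 without WT 2. The 21 genes of elongation factors and CTD kinases had 0.01, and no gene of either list had an unadjusted p under 0.05. RPB3, the member of the subunit list with the smallest p, had -0.09 (unadjusted p = 0.28). Among the kinases KIN28, which phosphorylates the CTD at promoters, had -0.28 (unadjusted p = 0.21) from a stretch of 28 bp.

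Some protein-coding genes are held down by Nrd1-dependent termination near their start, and 8 of the 9 listed were measured. At an unadjusted p under 0.05, 2 were higher (25.0%, against 1.22% of genes tested) and 0 lower (against 0.391%). URA2, which starts pyrimidine synthesis (chromosome X, 165723 to 172367), had 238 and 297 in WT and 384 and 359 in Pcf11-DNL, with no overlap (log2 0.48, SE 0.13, unadjusted p = 0.0048). Its difference was 0.59 in the narrow and 0.37 in the wide pair. ADE12, of AMP synthesis, had 156 and 139 against 161 and 179 (log2 0.20, unadjusted p = 0.049). IMD2, of GTP synthesis, had 287 and 322 against 338 and 316 with overlap (log2 0.10, unadjusted p = 0.36), and it was named after its values were seen. The list's median was 0.09 (0.15 narrow, 0.03 wide), -0.04 without WT 1 and 0.15 without WT 2. With meiosis genes set to a common median it was -0.00, while the median of all genes was -0.09.

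Genes of amino acid synthesis were mostly above 0 by small amounts. Of 43 measured, 34 had a positive log2 difference, 14 had both Pcf11-DNL libraries above both WT libraries (32.6%, against 9.09% of all genes), and 5 were higher at an unadjusted p under 0.05 (11.6%, against 1.22%). None was lower at that threshold. HIS4 is given above, and ARO3, which starts aromatic amino acid synthesis, had 237 and 242 in WT and 287 and 283 in Pcf11-DNL (log2 0.25, unadjusted p = 0.016). The median of the list was 0.08 (0.11 narrow, 0.05 wide) and -0.01 without WT 1. With meiosis genes set to a common median it was -0.01, while the median of all genes was -0.09. For genes of purine and one-carbon metabolism the median was 0.11 (0.15 narrow, 0.12 wide). At an unadjusted p under 0.05, 2 of 14 were higher (14.3%, against 1.22% of genes tested), ADE2 (unadjusted p = 0.046) and MTD1. MTD1, a folate dehydrogenase, had 141 and 135 against 156 and 165 (log2 0.22, unadjusted p = 0.015). Genes of sulfur and methionine metabolism had a median of 0.01, and 0 of 22 had an unadjusted p under 0.05.

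Ribosomal protein, histone and glycolysis genes, all highly transcribed, had negative medians whose size depended on the libraries. Of 138 ribosomal protein genes, many of which have a near-identical copy whose reads may not be told apart, 134 had a log2 difference below 0, with a median of -0.15 (-0.10 narrow, -0.18 wide). The median was -0.01 both after quantile normalization and after each library was given an equal spread, and 0.04 without WT 2. Only RPL35B had an unadjusted p under 0.05. The 10 histone genes had a median of -0.16 (-0.15 narrow, -0.18 wide) and 0.04 without WT 2. The 19 glycolysis and fermentation genes had -0.11 (-0.01 narrow, -0.26 wide), 0.01 with equal spread and 0.10 without WT 2. None of the histone or glycolysis genes had an unadjusted p under 0.05. The part of the range difference in these medians was not tested beyond these values.

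The 17 phosphate regulon genes had a median of -0.21 (-0.14 narrow, -0.32 wide), and 0.05 without WT 2. PHM6, of this regulon, had 182 and 347 in WT and 221 and 141 in Pcf11-DNL. PHO84, the high-affinity phosphate transporter, had 1462 and 2719 against 2029 and 1246, and was named after its values were seen. In both genes the WT libraries differed from each other more than the means of the genotypes did (log2 -0.51, unadjusted p = 0.11, and -0.33, unadjusted p = 0.47). Only GIT1, a glycerophosphoinositol permease, was lower at an unadjusted p under 0.05 (log2 -0.21, unadjusted p = 0.047). Of all genes tested, 0.391% were lower at that threshold.

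Of 20 iron regulon genes none had an unadjusted p under 0.05. FET3, the multicopper oxidase of iron uptake, had 371 and 592 in WT and 434 and 295 in Pcf11-DNL (log2 -0.39, unadjusted p = 0.14). Hexose transporter genes had a median of 0.10 (0.04 narrow, 0.15 wide) and -0.12 without WT 2, with 17 of 19 above 0. HXT1 went against that sign. HXT6, a high-affinity transporter whose sequence is nearly identical to that of HXT7, had 135 and 141 against 153 and 158 (log2 0.17, unadjusted p = 0.053). HXT3, a low-affinity transporter named after its values were seen, had 0.05.

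Meiosis and a-cell specific genes, a pair of lists of low coverage, had positive medians in the fit and in the wide pair and medians just below 0 in the narrow pair. The 54 meiosis and sporulation genes had a median of 0.11, with 0.26 in the wide and -0.04 in the narrow pair, and -0.26 without WT 2. The 6 a-cell specific genes had 0.14, with 0.35 and -0.01, and -0.21 without WT 2 (their summed scaled coverage was 312 and 171 in WT and 223 and 322 in Pcf11-DNL). The 4 alpha-cell specific genes summed to 2669 and 4458 in WT and 3322 and 2590 in Pcf11-DNL, far above the a-cell genes in all 4 libraries, as the labelled mating type has it. Their median difference was -0.20, with -0.39 in the wide and -0.02 in the narrow pair, and 0.14 without WT 2. In both lists the values followed the narrow and wide libraries rather than the genotypes.

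**Figure D5:**
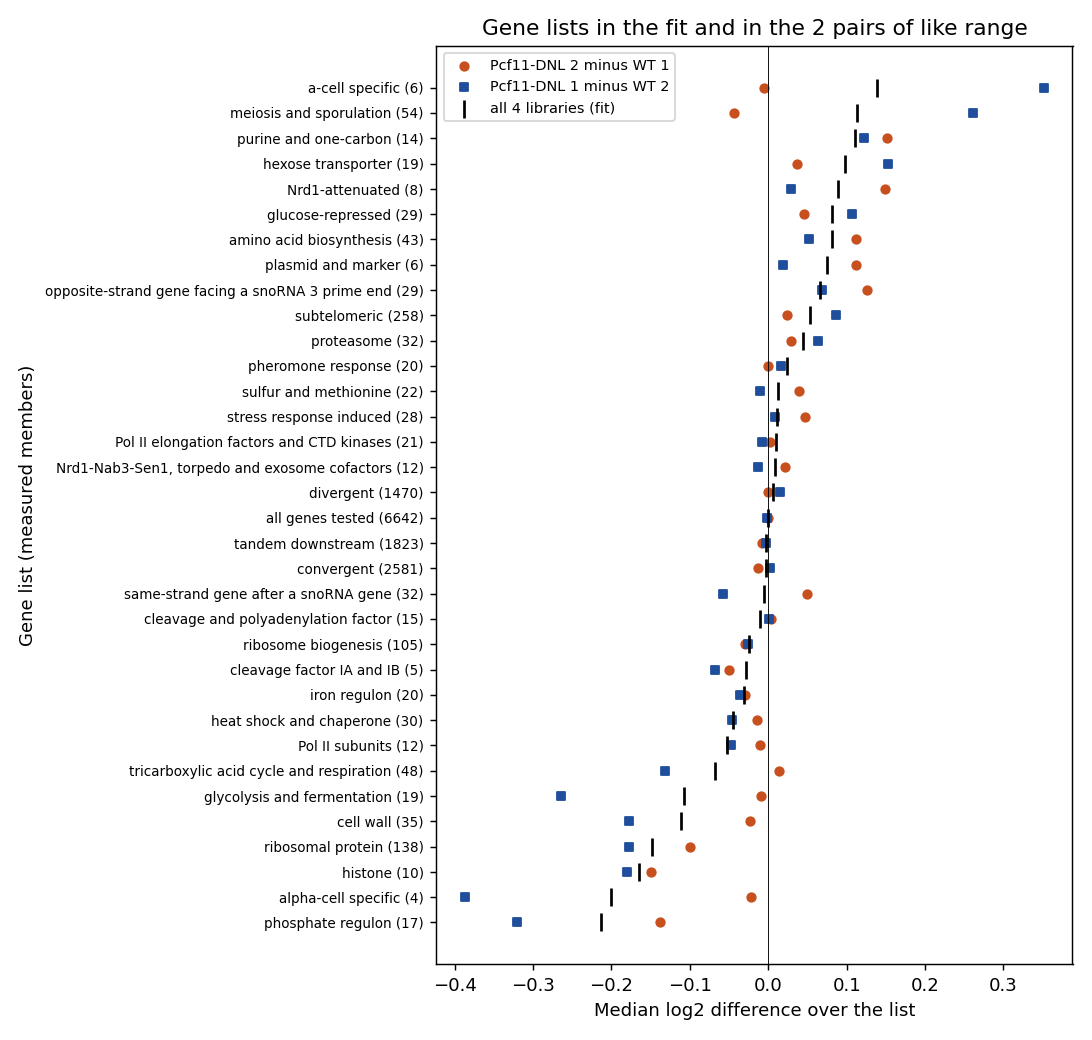
Median log2 difference (horizontal axis) of each gene list, with its measured members in brackets, in the narrow pair (circles), the wide pair (squares) and the fit of all 4 libraries (bars). Phosphate regulon, alpha-cell specific and histone genes lie lowest in the fit, at -0.21, -0.20 and -0.16, and the markers of glycolysis, meiosis and both mating-type lists spread apart between the pairs.

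Of the remaining lists, ribosome biogenesis genes had a median of -0.02, heat shock and chaperone genes -0.05, stress response induced genes 0.01, pheromone response genes 0.02 and proteasome genes 0.04, each with 0 members at an unadjusted p under 0.05. Without WT 2 these medians were, in the same order, 0.04, 0.06, -0.01, -0.02 and 0.08. Glucose-repressed genes had a median of 0.08 (0.05 narrow, 0.11 wide) and -0.11 without WT 2. Cell wall genes, 28 of 35 of which were below 0, had -0.11 (-0.02 narrow, -0.18 wide) and 0.08 without WT 2. Genes of the tricarboxylic acid cycle and respiration, 44 of 48 below 0, had -0.07 (0.01 narrow, -0.13 wide) and 0.05 without WT 2. TIP1, a cell wall mannoprotein gene, was the 1 cell wall gene at an unadjusted p under 0.05 (2.86%, against 1.22% of genes tested that were higher). It had 352 and 376 in WT and 459 and 424 in Pcf11-DNL (log2 0.28, unadjusted p = 0.032).

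Genes next to other protein-coding genes had medians close to that of all genes. The 1823 genes that start within 500 bp after another gene on the same strand had a median of -0.00, and 12 of them were higher (0.658%, against 1.22% of genes tested) and 7 lower (against 0.391%) at an unadjusted p under 0.05. Where the upstream gene was in the top group of 10 by WT coverage, the 168 downstream genes had a median of -0.02, and 5.95% had both Pcf11-DNL libraries above both WT libraries, against 9.09% of all genes. Where it was in groups 6 to 9, the 730 downstream genes had -0.01 and 8.77%. Where it was in the lower 5 groups, the 925 downstream genes had 0.00 and 6.81%. The 2581 genes of convergent pairs had -0.00, the 1470 of divergent pairs 0.01 and the 258 within 20000 bp of a chromosome end 0.05, which was -0.07 without WT 2. ARO5, of a divergent pair (chromosome VII, 288512 to 289309), had 178 and 195 in WT and 240 and 240 in Pcf11-DNL (log2 0.36, unadjusted p = 0.0024). Median differences by chromosome ran from -0.01 to 0.02 in Pol II and from -0.01 to 0.01 in input over the 16 chromosomes. In input 0 of 6643 genes passed an adjusted p of 0.05 by limma, and 232 had an unadjusted p under 0.05 (3.49%).

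The Pcf11-13 libraries were compared with the same WT libraries, so the values that follow share their controls with those above. In that comparison 75 of 6642 genes passed (1.13%). YMR194C-A had a log2 difference of 1.97 in Pcf11-13 beside 1.19 in Pcf11-DNL, PAM16 1.42 beside 0.62, VMA9 1.29 beside 0.65 and YDR042C 1.24 beside 0.82. TRS31 had 0.85 beside 0.54, HEM4 0.79 beside 0.46, URA2 0.99 beside 0.48 and HIS4 1.02 beside 0.34. HXT1 had -1.30 beside -0.49. For each of these genes the Pcf11-DNL libraries lay between those of WT and Pcf11-13, as for YMR194C-A with 692 and 703 in Pcf11-13. That order was not general. Of the other lower genes of smallest p, only YLR334C, YDR360W and YDR246W-A were lower still in Pcf11-13. YMR272W-B had -0.17 in Pcf11-13 beside -0.44, YJL136W-A -0.17 beside -0.28 and SVS1 -0.15 beside -0.27. YIL141W had -0.11 beside -0.22 and SCS22 -0.25 beside -0.32. PCC1 had 0.12 beside -0.26, and TIP1 -0.07 beside 0.28. PCF11 differed from that order, with 2.31 in Pcf11-13 beside -0.03. It was on a plasmid in each group, and input was not compared for Pcf11-13, so gene copy was not checked for that value. The difference between the mutants was not tested here.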

How the data were processed

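Pol II and input coverage per gene was used as the authors deposited it, a signal with no scaling to depth; read numbers are unknown. Tools named without roles in the submitters' processing notes are deepTools 3.1.2, BWA 0.7.17-r1188 and Trimmomatic 0.38, and the build is sacCer3. The averaging of coverage over genes is not given in the sources used here. Reads were 50 nt, per the labels' protocols. Of 5908 genes over 150 bp, 132 fitted a stretch of at most 100 bp, 45 of them among the 138 ribosomal protein genes.

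Coverage was divided by unweighted trimmed-mean (TMM) factors with 30% and 5% trims. The model, limma 3.58.1 under R 4.3.3 with its trend option, took log2(scaled coverage + 1) of the 6 Pol II libraries. It kept genes reaching a coverage of 10 in 2 or more of them, and Benjamini-Hochberg adjusted p-values run over all of them. Every p printed is from this fit unless another is named, and folds are on the log2(value + 1) scale. The fit was tested on simulated libraries of like coverage range, so that test does not cover the split into narrow and wide libraries. Of 6650 genes, 5976 matched the RefSeq table (assembly R64), which gave names, coordinates and, through locus names, strand; 674 did not.

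Genes named, not all printed, are the called gene and those beside it by systematic name. The 10 higher and 10 lower genes of smallest p whose genotypes do not overlap are named too. So are the 2 members of smallest p of each list with at least 5 measured members. PCF11, RNA14, RNA15, CLP1, HRP1, LEU2, TRP1, URA3, HIS3 and ADE2 were fixed. Scaling, spread, pseudocount, filter, input, block and left-out libraries were varied. Members, lists and tests were chosen with earlier results of these data known. Deviations of same-numbered WT and Pcf11-DNL libraries from their group means correlated at -0.888 over genes. The narrow and wide libraries bear opposite numbers in these genotypes, so this value cannot tell whether the numbers pair the samples. The main fit used no pairing.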

Additional observations from a re-analysis of the deposited data

How the results depend on the processing

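The count of 1 called gene moved with the setting. It was 8 with library totals, 0 with meiosis and sporulation genes set to a common median, 2 with equal spread, 0 with no coverage filter (YMR194C-A adjusted p = 0.068), 3 with a coverage minimum of 50, 0 with the WT and Pcf11-DNL libraries alone (adjusted p = 0.050; 63 genes at an unadjusted p under 0.05) and 2 with input subtracted. It stayed at 1 with median-of-ratios scaling, quantile normalization and a pseudocount of 10. YMR194C-A was higher in every setting run, with a log2 change from 1.07 to 1.31. Without WT 1, 401 genes passed, without WT 2, 28, without Pcf11-DNL 1, 2, and without Pcf11-DNL 2, 3, a range of 2 to 401 that includes the fits on the narrow or the wide pair. In the input, 0 genes passed in each setting, with 202 to 326 at an unadjusted p under 0.05.

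A replicate block called 3 genes. Whether the numbers pair these samples cannot be told. Pairing WT 1 with Pcf11-DNL 2 and WT 2 with Pcf11-DNL 1 called 58 (26 higher, 32 lower). That alternative was added after the data were seen, like the fits on the narrow and wide pairs.

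Signs of small log2 differences turned. With meiosis genes set to a common median, the median of all genes moved to -0.09. In that setting RPN7 had -0.0028, SEN1 had -0.032, HXT3 had -0.038, CLP1 had -0.064, URA3 had -0.042 and RNA15 had -0.075, each above that median. With input subtracted, LEU2 had -0.036. With library totals, PCF11 had 0.015 and TRP1 had 0.031. After quantile normalization, CLP1 had -0.0097 and TRP1 had 0.014. With equal spread, CLP1 had -0.018, RNA15 had -0.0074 and TRP1 had 0.026. With libraries left out, values ran from -0.30 to 0.028 for QCR10, from -0.58 to 0.016 for KIN28, from -0.48 to 0.083 for RPL36A, from -0.48 to 0.11 for RPB11, from -0.030 to 0.24 for LEU2, from -0.18 to 1.22 for AGA2, from -0.77 to 0.12 for PHO84, from -0.25 to 0.067 for TDH1, from -0.13 to 0.015 for MTR4, from -0.59 to 0.35 for PTC7, from -0.069 to 0.17 for HXT3, from -0.071 to 0.13 for CLP1, from -0.092 to 0.041 for PCF11, from -0.063 to 0.092 for RNA15 and from -0.11 to 0.089 for TRP1. The cause was not tested. Depth is unknown, so it sets no limit that can be stated.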
